A study of Mus musculus with 5 samples.

Results

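The S100, annexin and cytoskeletal genes that mark antigen-experienced, migrating T cells were followed in T cells sorted from mouse brain. These were S100a4, S100a6, S100a10, S100a11, Anxa1, Anxa2, Lgals1, Vim, Crip1 and Ahnak. The list was chosen by gene name, with earlier results of these data known. Its 10 members stand among 15952 genes with at least 1 unique molecular identifier (UMI, a tag that counts 1 captured mRNA molecule) in the cells kept. S100 proteins are small calcium sensors that bind annexins, myosin and other partners, and annexins attach to membrane phospholipids when calcium rises. S100a10 forms a complex with Anxa2 that is held at the plasma membrane together with the giant scaffold protein Ahnak, and vimentin, a filament protein, gives a crawling cell its flexible interior. In T cells these genes are known as part of a programme that is low in naive cells and higher in effector and memory cells.

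All 5 mice carried the Grl1loxP/loxP strain label, in which loxP sites flank the glucocorticoid receptor gene, and all 5 went through foot-shock stress and were taken on day 14. The 3 TAT-CRE mice (numbers 207, 208 and 215, aged 18, 18 and 19 weeks) had received TAT-CRE recombinase, a cell-penetrating recombinase, into the brain ventricle, and the 2 PBS mice (216 and 218, labelled as sham, aged 19 and 16 weeks) had received PBS by the same route. The recombinase was aimed at the choroid plexus, which was left out of the dissection, and no group without stress or without the loxP alleles was among the samples. CD45+CD11b-TCRβ+ cells were sorted singly into 1 plate of 384 wells per mouse, each plate being its own amplification batch, so that mouse and batch cannot be told apart. Whether a library pooled several animals is not given in the sources used here.

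Wells with 1 cell, at least 400 UMIs and at most 30% mitochondrial UMIs numbered 1482, from 274 to 311 per mouse. Median depth ran from 993 UMIs per cell in TAT-CRE mouse 208 to 2660 in PBS mouse 218, and ribosomal RNA took 28.3% of UMIs in mouse 208 against 43.9% to 48.0% in the other mice. T cell markers were found in 1331 of the 1482 cells. Of 23 myeloid, endothelial and stromal markers, 17 were at 0 UMIs, Lyz2, Csf1r, Cd14 and all 6 stromal genes among them. Nr3c1, the glucocorticoid receptor gene, stood at 175, 141 and 156 CPM (UMIs of a gene over all UMIs of the cells summed, scaled to a fixed total) after TAT-CRE, against 191 and 222 CPM after PBS, which does not check a knockdown made in another tissue. Summed levels cannot tell fewer cells that express a gene from less of its RNA in each cell.

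S100a4 and S100a6 lie near each other and were the members that differed between T cell states, so their promoters are shown. On build mm10, S100a4 (ENSMUSG00000001020) spans chr3:90603771-90606045 and S100a6 (ENSMUSG00000001025) spans chr3:90612882-90624181, both on the plus strand and 6836 bases apart. S100a11 (chr3:93520488-93526287) and S100a10 (chr3:93555080-93564643) form a second pair on the same chromosome, 28792 bases apart. Whether other genes lie between the genes of a pair was not examined. RefSeq's promoter table for the same build held 8 of the 10 members. The 250 bases before the RefSeq start are printed for chr3:90603520-90603769 (S100a4) and chr3:90612644-90612893 (S100a6), 5′ to 3′ on the plus strand, with matches to 4 searched motifs in capitals.
S100a4: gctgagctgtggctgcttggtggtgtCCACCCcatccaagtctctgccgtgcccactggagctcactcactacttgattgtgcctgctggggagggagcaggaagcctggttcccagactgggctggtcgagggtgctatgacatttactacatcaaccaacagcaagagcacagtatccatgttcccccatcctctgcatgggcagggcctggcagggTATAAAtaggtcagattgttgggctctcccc
S100a6: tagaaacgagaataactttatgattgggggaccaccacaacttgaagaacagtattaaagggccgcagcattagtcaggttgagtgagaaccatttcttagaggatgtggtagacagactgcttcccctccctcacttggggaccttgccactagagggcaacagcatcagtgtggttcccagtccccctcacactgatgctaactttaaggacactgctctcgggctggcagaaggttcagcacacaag
The motifs, searched on both strands, were TATAAA (the TATA box), TGANTCA (bound by AP-1), CCACCC (bound by KLF factors, the family of Klf2) and GGGCGG (bound by SP factors). S100a4 held TATAAA 31 bases and CCACCC 224 bases before its start, and S100a6 held none of the 4. Among 32851 promoters of this length, 12.4% held TATAAA, 6.75% TGANTCA, 28.1% CCACCC and 32.7% GGGCGG. Of the 8 members with a promoter, 4, 2, 5 and 4 held them in the same order.

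Every member was detected, Anxa1 barely. S100a6 gave 1795 UMIs in 510 cells, Vim 1995 in 457, S100a10 1573 in 524, S100a4 1220 in 359 and Ahnak 1078 in 297. Crip1 gave 905 UMIs in 326 cells, Lgals1 788 in 260, S100a11 634 in 266 and Anxa2 274 in 113. Anxa1, which glucocorticoids are known to induce in leukocytes, gave 29 UMIs in 12 cells, or 0.810% of cells (95% exact binomial interval 0.419% to 1.41%, counting error only). In 20 wells that held no cell, with a median of 40 UMIs, Lgals1 had a UMI in 3 wells, S100a4 in 2 and S100a10 in 1, while the other 7 members had none. Lgals1, S100a4 and S100a10 thus had a background in wells without a cell, and its part in their shares of cells and co-detection was not tested. Of the genes that define the cell classes used further on, Cxcr6 and Cd8b1 had a UMI in 2 of these 20 wells each and Cd8a in 1, while Klf2 and Cd4 had none. A single UMI sets a class, and the part of this background in the Cxcr6 and Cd8 classes was not tested.

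The share of cells with a member's UMI moved with depth. Before depth was matched, S100a6 was found in 21.5% of cells of TAT-CRE mouse 208, the shallowest library, and in 41.6% of those of PBS mouse 218, the deepest. With each cell thinned at random to 400 UMIs, the 2 shares became 12.9% and 15.3%, and the mean over the 5 mice was 14.9% ± 1.21 (SD, n = 5). On that scale Vim was found in 15.7% ± 2.49 of cells, S100a10 in 14.5% ± 1.19, S100a4 in 12.7% ± 2.20 and Crip1 in 8.87% ± 1.69. The shares were 7.50% ± 1.95 for Ahnak, 6.90% ± 1.16 for Lgals1, 6.61% ± 1.11 for S100a11, 2.58% ± 1.56 for Anxa2 and 0.350% ± 0.447 for Anxa1.

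No member passed the test between TAT-CRE and PBS mice. With the UMIs of all kept cells summed per mouse, S100a6 stood at 544, 640 and 711 CPM in TAT-CRE mice 207, 208 and 215, against 506 and 580 in PBS mice 216 and 218. S100a4, a binder of non-muscle myosin, stood at 403, 361 and 479 CPM in the same TAT-CRE mice, against 436 and 341 after PBS. The groups overlapped for both genes. S100a10, the partner of Anxa2, was level across the mice, from 479 in PBS mouse 216 to 560 in TAT-CRE mouse 208.

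S100a11 and Anxa2 were the members whose 2 groups did not overlap in CPM. The share of all genes whose groups stand apart, in CPM or in shares of cells, was not counted. Separation of the groups is therefore not read as a result about these members. S100a11, known to bind Anxa1, had 256, 240 and 207 CPM after TAT-CRE, against 155 and 193 after PBS. Anxa2 went the other way, with 88.1, 74.5 and 54.4 CPM after TAT-CRE, against 133 and 95.3 after PBS. The gap between the nearest mice was small in both cases: 207 against 193 for S100a11, and 88.1 against 95.3 for Anxa2. On the share of cells thinned to 400 UMIs the groups overlapped for S100a11, at 5.61% to 8.39% after TAT-CRE against 5.74% and 6.57% after PBS. They stood apart there for Anxa2, at 1.01% to 2.25% against 2.92% and 5.07%, and for Lgals1, at 5.71% to 6.75% against 7.66% and 8.45%. Anxa1 was found at 10.1, 2.76 and 8.50 CPM after TAT-CRE, against 0 and 19.1 after PBS, from at most 16 UMIs in any mouse. Its count of 0 in PBS mouse 216 allows a share of up to 1.01% of that mouse's 296 cells.

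Among the structural and binding members, Vim ran from 530 in TAT-CRE mouse 215 to 949 in TAT-CRE mouse 208, a spread inside 1 group that held both PBS mice (631 and 685). Lgals1, a secreted and intracellular lectin, ran from 218 to 288, Crip1, a small LIM-domain protein, from 272 to 344, and Ahnak from 264 to 475 over the 5 mice. A single cell of TAT-CRE mouse 207 held 53 of that mouse's 329 Ahnak UMIs.

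**Figure D1:**
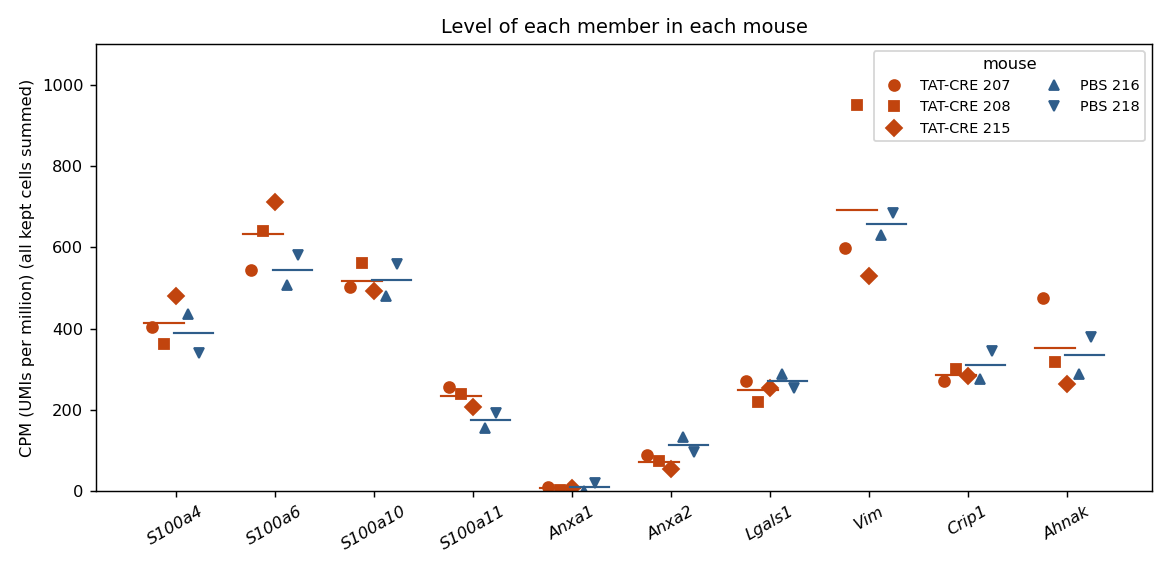
CPM of each member (vertical axis, linear) with all kept cells of a mouse summed; each point is 1 mouse, orange for the 3 TAT-CRE mice and blue for the 2 PBS mice, and lines are group means. The groups overlap for S100a4 and S100a6 and stand apart for S100a11 (207 to 256 against 155 to 193) and Anxa2 (54.4 to 88.1 against 95.3 to 133). The share of all genes that stand apart was not counted.

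The filter on low counts left 9 members to be tested, Anxa1 being too low. None of the 9 was called by edgeR's quasi-likelihood test at an adjusted p under 0.05, against 0.0% of 6341 genes called in all (0 genes, 240 at an unadjusted p under 0.05). DESeq2 called 1 gene and edgeR without the filter called 8, no member among them. Anxa2 had the largest difference in size, a log2 fold change of -0.73 ± 0.37 (SE; edgeR adjusted p = 0.999), and S100a11 followed with 0.36 ± 0.27 (edgeR adjusted p = 0.999). The other 7 lay between -0.20 (Crip1) and 0.15 (S100a6). The median over the 9 members was -0.05, beside 0.00 over all genes tested. In the cells with a Cd8a or Cd8b1 UMI and no Cd4 UMI, 0 of the 9 members tested were called, against 0.0% of 4011 genes (123 at an unadjusted p under 0.05). There S100a11 differed by 0.61 ± 0.34 and Anxa2 by -0.59 ± 0.48 on the log2 scale (edgeR adjusted p = 1.00 for both).

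S100a4 and S100a6 differed between T cell states. Cxcr6 is a chemokine receptor of effector and tissue-resident T cells, and Klf2 is a transcription factor that keeps T cells in circulation and in lymph nodes. A Cxcr6 UMI without a Klf2 UMI marked 384 cells (59 to 101 per mouse) and a Klf2 UMI without a Cxcr6 UMI marked 139 (21 to 40 per mouse), while 49 cells had both and 910 neither. The 2 genes that define the classes were left out of the test. S100a4 and S100a6 were higher in the Cxcr6 cells, together with the effector genes Id2, Ccl5, Nkg7 and Gzmb, while the lymph node homing receptor gene Ccr7 was lower.

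S100a6 had 770, 730, 954, 616 and 603 CPM in the Cxcr6 cells of mice 207, 208, 215, 216 and 218. In the Klf2 cells of the same mice it had 167, 163, 183, 438 and 624. The 5 Cxcr6 values spread over a narrow range, and the Klf2 values of the 3 TAT-CRE mice lay below those of the 2 PBS mice. The CPM of S100a10 and Ahnak also stood apart by group in the Klf2 cells. The share of all genes that do so was not counted, so this is not read as a result about S100a6. S100a6 was higher in the Cxcr6 cells in 4 of 5 mice, PBS mouse 218 being the exception. The Klf2 values rest on 15, 5, 10, 28 and 85 UMIs in that order.

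S100a4 had 640, 574, 722, 678 and 280 CPM in the Cxcr6 cells and 145, 686, 238, 125 and 220 in the Klf2 cells of the same 5 mice. It was higher in the Cxcr6 cells in 4 of 5 mice, the exception this time being TAT-CRE mouse 208. The Klf2 value of that mouse rests on 21 UMIs in 4 cells, of which 1 cell held 12. With cells thinned to 400 UMIs, the share of cells with a UMI was higher in the Cxcr6 cells in 3 of 5 mice for S100a4 (16.4% against 8.63% over all cells) and in 4 of 5 for S100a6 (20.3% against 10.8%).

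**Figure D2:**
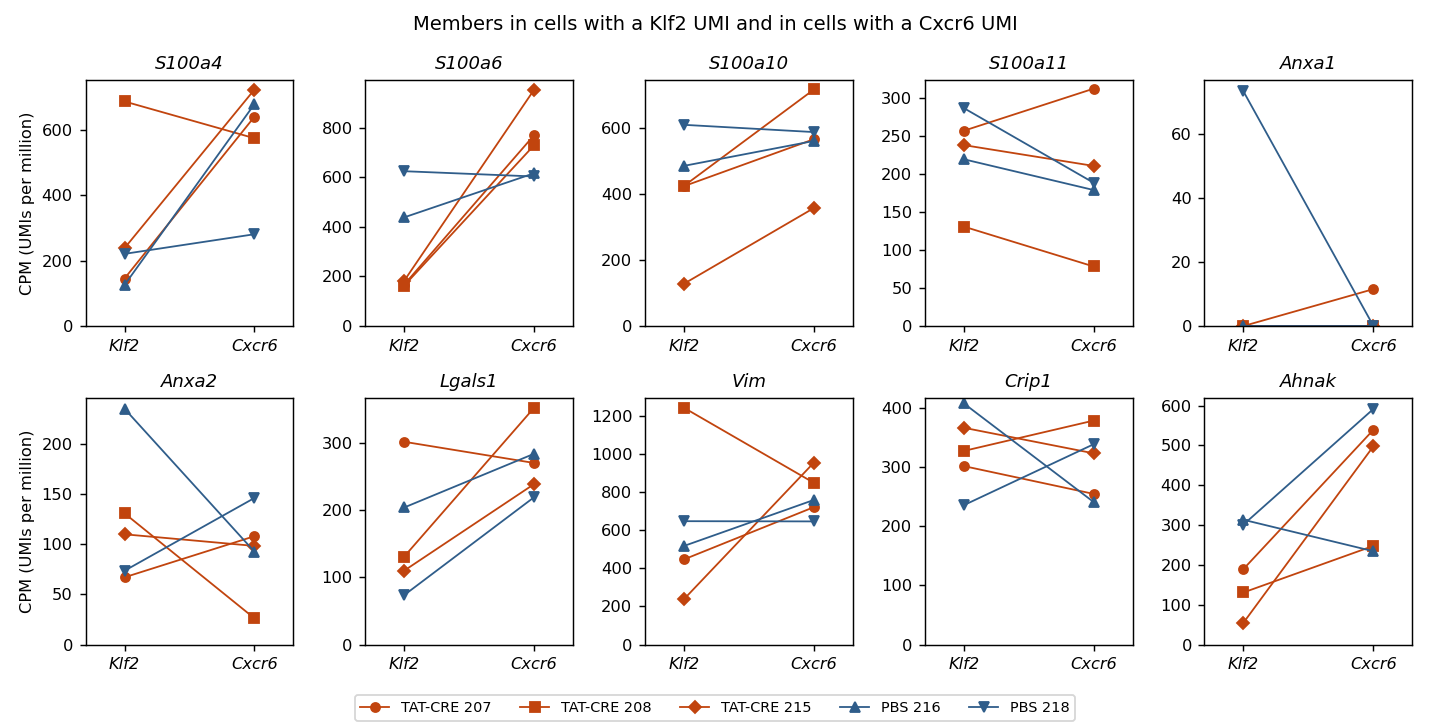
CPM (vertical axes, linear, a separate scale per gene) of each member in cells with a Klf2 UMI and no Cxcr6 UMI (left) and in cells with a Cxcr6 UMI and no Klf2 UMI (right), with 1 line per mouse, orange for TAT-CRE and blue for PBS. Lines for S100a6 rise steeply in the 3 TAT-CRE mice, from 163 to 183 up to 730 to 954, and the lines for Crip1 have no shared direction.

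Both classes of a mouse were compared inside that mouse. S100a6 rose by a log2 fold change of 1.36 ± 0.28 (SE, 5 mice, edgeR adjusted p = 0.00693) and S100a4 by 1.31 ± 0.30 (edgeR adjusted p = 0.0171). Both standard errors borrow from the spread of all genes tested and do not rest on these 2 genes over the 5 mice alone. Of the 9 members tested, 2 were called higher in the Cxcr6 cells, against 0.517% of all 2516 genes tested called in that direction and 0.715% in either. The median log2 fold change over all genes tested was 0.22, and 0.11 when scaled by library totals alone. Of the 18 genes called 13 were higher in the Cxcr6 cells, beside 11 of 20 by library totals and 16 of 28 with DESeq2. Relative to that median, S100a6 stood at 1.14 and S100a4 at 1.09, and by library totals at 1.16 and 1.09. NK cell markers, all 5 of them detected, summed to 14.0 to 166 CPM in the Cxcr6 cells and 0 to 47.0 in the Klf2 cells; their part in the result was not tested. Without the 124 cells that held a myeloid, endothelial or stromal UMI, both genes passed (edgeR adjusted p = 0.0451 for S100a6 and 0.0417 for S100a4).

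Both calls depend on single mice. S100a6 was no longer called without TAT-CRE mouse 207 (edgeR adjusted p = 0.178), 208 (0.141) or 215 (0.274). S100a4 was no longer called without TAT-CRE mouse 207 (edgeR adjusted p = 0.230), TAT-CRE mouse 215 (0.274), PBS mouse 216 (0.183) or PBS mouse 218 (0.0835). The direction held in each of these fits, where the log2 fold change of S100a4 ran from 1.06 to 1.63, and the count of all genes called fell from 18 to 9 without mouse 207, 7 without 215 and 4 without 218. Neither gene was called when the classes were set from thinned cells (edgeR adjusted p = 0.309 for S100a6 and 0.105 for S100a4), in which fewer cells hold a Cxcr6 or Klf2 UMI, or without the mouse as a block (0.249 and 0.152). S100a4 also missed the threshold with a minimum of 800 UMIs per cell (edgeR adjusted p = 0.0531).

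The other members did not pass. Ahnak came nearest, at a log2 fold change of 1.19 ± 0.35 (edgeR adjusted p = 0.105), with 539, 248, 498, 234 and 592 CPM in the Cxcr6 cells and 190, 131, 54.9, 313 and 301 in the Klf2 cells. It was higher in the Cxcr6 cells in 4 of 5 mice, and the cell of mouse 207 with 53 UMIs is among the 23 Cxcr6 cells of that mouse that held Ahnak. Without PBS mouse 216, where its order was the reverse, Ahnak was called (edgeR adjusted p = 0.0245). Lgals1 had 0.92 ± 0.39, Vim 0.58 ± 0.23 and S100a10 0.57 ± 0.24, with edgeR adjusted p-values of 0.523, 0.422 and 0.513. Crip1 had 0.01 ± 0.30, and -0.09 when scaled by library totals alone, S100a11 had -0.17 ± 0.37 and Anxa2 -0.17 ± 0.63. The median over the 9 was 0.58, beside the 0.22 over all genes.

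**Figure D3:**
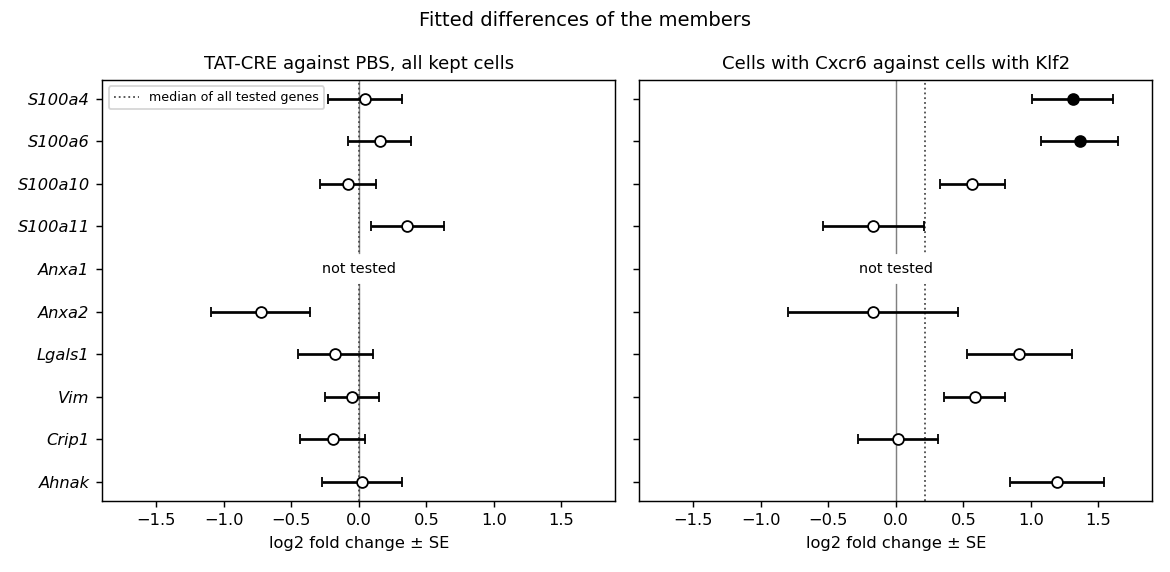
Log2 fold change with its standard error (horizontal axis) of each member in the comparison of TAT-CRE with PBS mice (left) and of Cxcr6 with Klf2 cells (right); filled points have an edgeR adjusted p under 0.05, and the dotted line is the median of all genes tested. S100a4 (1.31) and S100a6 (1.36) are the filled points, both on the right.

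Restricting both classes to cells with a Cd8a or Cd8b1 UMI and no Cd4 UMI left 190 Cxcr6 and 63 Klf2 cells. S100a4 and S100a6 were then higher in the Cxcr6 cells in 5 of 5 mice. S100a6 had 682, 642, 1021, 554 and 681 CPM there against 297, 64.5, 250, 516 and 486 in the Klf2 cells, with a log2 fold change of 1.22 ± 0.36 (edgeR adjusted p = 0.239). S100a4 had 558, 876, 620, 782 and 427 against 191, 774, 282, 143 and 195, with 1.42 ± 0.34 (edgeR adjusted p = 0.0932). Neither passed the threshold in this smaller set, where 0 of 8 members and 0.181% of 1104 genes were called, the 2 genes being Id2 and AW112010. That count was 4 without TAT-CRE mouse 207, 6 without 208, 0 without 215, 0 without PBS mouse 216 and 1 without 218. DESeq2 called S100a4 (adjusted p = 0.0229), as did edgeR without TAT-CRE mouse 208 (adjusted p = 0.0357). Lgals1 differed by 1.11 ± 0.78 and Ahnak by 1.06 ± 0.43 on the log2 scale, both not called. Crip1 was lower in the Cxcr6 cells in 5 of 5 mice, by less than 0.5 on the log2 scale and without a call.

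S100a6 was also the gene with the smallest p when the difference between Cxcr6 and Klf2 cells was itself compared between TAT-CRE and PBS mice. That difference of differences was 2.13 ± 0.48 on the log2 scale (SE; edgeR adjusted p = 0.0541), just outside the threshold, and 0 of 9 members and 0.0% of 2516 genes were called (63 at an unadjusted p under 0.05). By CPM the TAT-CRE mice had higher S100a6 in Cxcr6 cells (730 to 954 against 603 to 616) and lower S100a6 in Klf2 cells (163 to 183 against 438 to 624). Neither class was tested alone between the groups, and the share of all genes whose groups stand apart within a class was not counted. In the Cd8 cells the groups overlapped among Cxcr6 cells (means 782 and 617 CPM) and stood apart among Klf2 cells (means 204 and 501 CPM). Median depth of the Klf2 cells was 2580, 1344 and 1704 UMIs after TAT-CRE, against 2631 and 2882 after PBS; its part in the result was not tested. The adjusted p ranged from 0.0105 to 1.00 over 13 alternatives, and 1 of them, with 124 cells holding a myeloid, endothelial or stromal UMI left out, passed. The next members by size were Ahnak at 1.56 ± 0.67 and S100a10 at 0.83 ± 0.49, neither called.

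Between lineages no member passed the test. A Cd8a or Cd8b1 UMI without Cd4 marked 630 cells (76 to 174 per mouse) and a Cd4 UMI without either Cd8 chain marked 85 (8 to 23 per mouse), 25 had both kinds and 742 neither. None of the 8 members tested was called, against 0.345% of 1738 genes (6 genes, all higher in the Cd8 cells, Ccl5 and Nkg7 among them; 17 without TAT-CRE mouse 208, and 2 without 215, 216 or 218). Ahnak was higher in the Cd8 cells by 0.94 ± 0.46, Crip1 by 0.78 ± 0.47, Lgals1 by 0.72 ± 0.56 and S100a6 by 0.67 ± 0.31 on the log2 scale (edgeR adjusted p from 0.495 for S100a6 to 0.844 for Lgals1), where the median of all genes was 0.29, and 0.04 by library totals, with which 3 of 4 called genes were higher in the Cd8 cells. At matched depth the order did not hold for every one of them: the share of thinned cells with a UMI was higher in the Cd8 cells in 5 of 5 mice for S100a6 and 4 of 5 for Crip1, but in 2 of 5 for Lgals1 and 1 of 5 for Ahnak. The mean Ahnak share was 7.58% in the Cd8 cells against 12.6% in the Cd4 cells. S100a4 showed no settled direction, with a fitted difference of -0.08 that ran from -0.58 to 0.50 over 14 alternatives. It had 554, 972, 622, 675 and 31.9 CPM in the Cd4 cells and 353, 336, 473, 482 and 374 in the Cd8 cells. The value of 31.9, from PBS mouse 218, is 1 UMI in 8 cells. S100a4 was thus lower in the Cd8 cells in 4 of 5 mice by CPM, while its thinned share was higher there in 3 of 5 (mean 14.1% against 11.8%). Anxa2 gave 7 UMIs in the 85 Cd4 cells and Anxa1 also gave 7.

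Co-detection of the members in the same cell was weak. In cells thinned to 400 UMIs, the 28 pairs of the 8 members found in at least 5% of cells had a median odds ratio of 1.21, with 23 of 28 above 1. The 134663 other pairs of genes found as often had a median of 1.04, with 55.3% above 1. Single mice did not all share this: over the 36 pairs of the 9 members other than Anxa1, the median was 0.872 in TAT-CRE mouse 208 and 0.873 in PBS mouse 216, against 1.12 to 1.75 in the other 3. With cells thinned to 200 UMIs outside ribosomal RNA, 22 of these 36 pairs were above 1 (61.1%), and other pairs of genes were not counted there. Odds ratios were combined over mice so that differences between mice do not enter, and cells of 1 mouse share a library, so no test is attached. S100a4 and S100a6 were found together in 41 cells where 28.3 would be expected if they were independent within each mouse, an odds ratio of 1.71 that was above 1 in 4 of 5 mice and 0.583 in the fifth, PBS mouse 216. Within the Cxcr6 cells alone the ratio of this pair was 2.38, from 22 shared cells, and within the Klf2 cells 1.78, from 2.

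Odds ratios were also taken in deeper cells. In the 766 cells with at least 1600 UMIs, thinned to 1600 (a depth chosen after seeing the data), 31 of 36 pairs of 9 members were above 1 with a median of 1.32, while other pairs had a median of 1.04 and 53.7% above 1. The highest ratios belonged to Anxa2 with Crip1 and to pairs of S100a4: with Vim the odds ratio of S100a4 was 2.01, with Lgals1 2.00 and with S100a6 1.85, each above 1 in 5 of 5 mice, and with Anxa2 1.97, above 1 in 4 of 5. S100a6 and Vim (1.73), S100a10 and Lgals1 (1.58), Lgals1 and Vim (1.58) and S100a6 and Lgals1 (1.40) were also above 1 in 5 of 5 mice. S100a10 and Anxa2, the partners of the membrane complex, had 1.76 from 27 shared cells and were above 1 in 3 of 5. Crip1 was split in these deeper cells. Its ratios were 0.742 with Lgals1, 0.841 with Ahnak, 0.876 with S100a10 and 0.975 with S100a4. They were 2.01 with Anxa2, 1.44 with S100a6, 1.33 with Vim and 1.23 with S100a11. Several of these values did not hold in all kept cells at the lower thinning depth. There Crip1 had 1.56 with Lgals1, 1.35 with S100a10, 0.895 with Anxa2 and 0.898 with S100a11. S100a6 and Vim had 0.977 there, and S100a4 and Vim 1.09. Apart from these reversals, the pairs named here kept their side of 1.

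In these deeper cells 100 held none of the 10 members where 58.6 would be expected under independence within each mouse, and 56 held 5 or more where 30.5 would be expected. At 400 UMIs the corresponding tail was 25 cells with 4 or more members against 11.4. The number of members per cell at 400 UMIs averaged 1.10 in the Cxcr6 cells and 0.784 in the Klf2 cells, and 31.2% and 48.2% of these cells held none. Cells with neither gene lay between when all mice were pooled, at 0.846. They lay below the Klf2 cells in TAT-CRE mouse 207 (0.814 against 0.833) and in PBS mouse 216 (0.847 against 1.05).

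**Figure D4:**
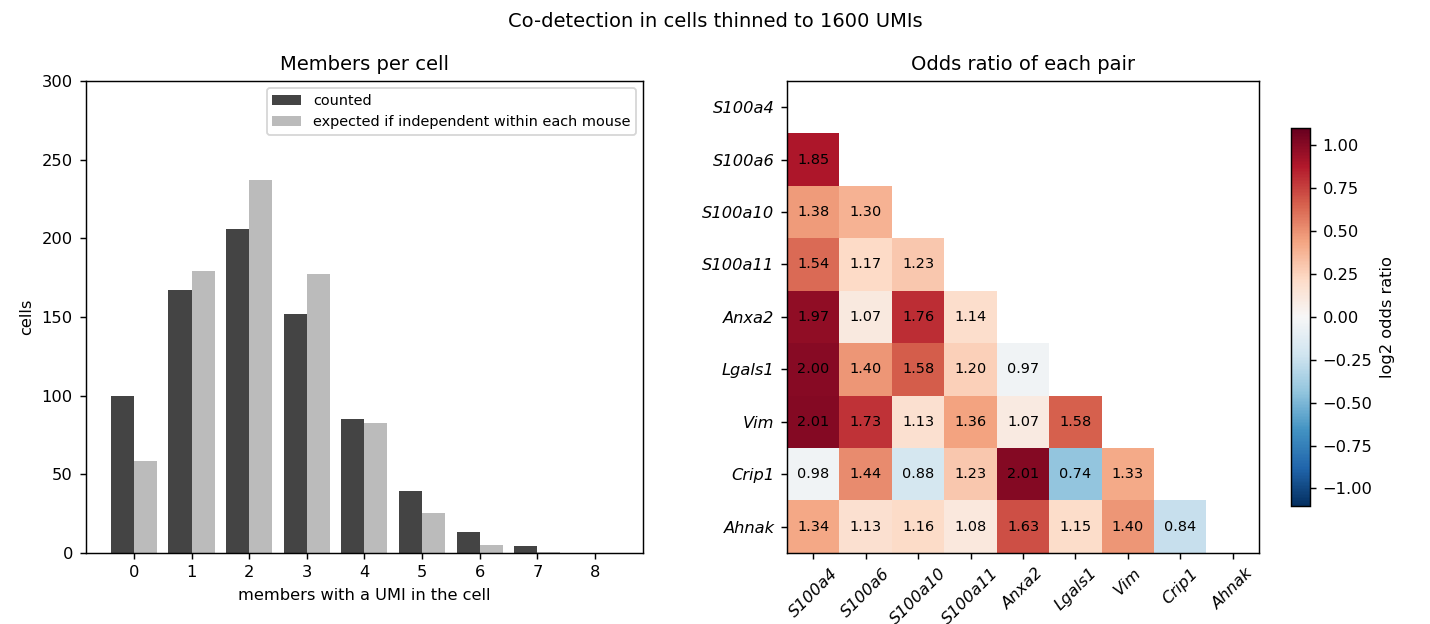
Left, number of cells (vertical axis) by number of members with a UMI in the 766 cells thinned to 1600 UMIs, counted (dark) and expected if members were independent within each mouse (light). Right, odds ratio of each pair of 9 members, coloured by its log2; 100 cells hold no member where 58.6 are expected, and the S100a4 column holds ratios from 0.98 to 2.01.

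Genes outside the list followed the members only loosely. Over 510 genes found in at least 5% of thinned cells, H2-D1 had the highest correlation of its detection with the number of members in the cell, a mean within-mouse Pearson r of 0.12 over 5 mice. Rac2 (0.09), Tmsb4x (0.09), Fth1 (0.09), Ccl5 (0.08), Cdc42 (0.08), Cd52 (0.08), Efhd2 (0.08), H2-K1 (0.07) and Id2 (0.07) came next. The lowest values belonged to the ribosomal protein pseudogenes and gene models Rps25-ps1 (-0.07), Gm7290 (-0.07), Rps16-ps2 (-0.07), Rpl18-ps1 (-0.07) and Gm15500 (-0.06), whose reads can be shared with near-identical copies. In counts this sparse these values are a description across cells that share library and depth.

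Relatives of the members were detected unevenly from family to family. Over all genes, 15952 of the 52634 deposited rows had a UMI in the kept cells. Of 12 other S100 genes 3 had a UMI: S100a13 with 232 UMIs in 106 cells, S100a1 with 14 and S100a3 with 1, while the neutrophil genes S100a8 and S100a9 were at 0. Of 10 other annexins 4 were found, led by Anxa6 with 588 UMIs in 252 cells and Anxa5 with 154 in 60. Among 8 other genes with galectin symbols 7 had UMIs. Lgals9 (270) and Lgals3bp (271), the latter the gene of a galectin-binding protein and not of a galectin, had the most. Of 12 LIM and filament genes 8 had UMIs, Plec (221) and Lmo4 (82) the most. Of all these relatives 8 were tested between Cxcr6 and Klf2 cells and none was called.

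Effector and homing genes also changed between these classes. Of 23 effector memory genes tested between Cxcr6 and Klf2 cells, 4 rose and none fell: Id2, a transcriptional regulator of effector T cells (log2 fold change 1.50 ± 0.18), the chemokine Ccl5 (1.08 ± 0.15), the granule gene Nkg7 (1.31 ± 0.25) and the protease Gzmb (3.69 ± 0.77). Gzmb had only 7 UMIs in the Klf2 cells, from 2 of them. Of 8 naive and lymph node homing genes, 3 fell, among them Ccr7 by 4.70 (only 6 UMIs in 4 of the Cxcr6 cells) and Lef1 by 2.49 on the log2 scale. Tcf7 (-0.99 ± 0.26, edgeR adjusted p = 0.0550) and Il7r (-0.48 ± 0.32), the 2 of that list with most UMIs, were not called. Rgs1, 1 of 7 residency genes tested, rose by 2.17 ± 0.41, while Rgs2 stood at -0.24 ± 0.37, not called. The list medians were 0.56, -2.42 and 1.26, beside 0.58 for the members and 0.22 for all genes. Integrin and adhesion genes often listed with the members were not called, Itgb1 at 0.65 ± 0.31 and Cd44 at 0.20 ± 0.49.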

How the data were processed

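Single T cells from 5 mice were sequenced by a plate-based method that tags the poly(A) RNA of each well before pooling and T7 amplification, per the labels' protocols. The authors deposited raw UMI counts per gene and well for 52634 rows, 1 table per mouse, and a table of wells whose last column counts the cells sorted (0 or 1). bcl2fastq 2.15.0.4 and build mm10 are named in the submitters' processing notes; the sources used here name no aligner, annotation or strand setting. Libraries totalled 395090 to 857632 UMIs.

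The members, gene lists and class rules were chosen with earlier results of these data known. Kept cells came from wells with 1 sorted cell, held 400 UMIs or more (spike-ins not counted) and no more than 30% mitochondrial UMIs. Cells were sorted singly and no doublet caller was run. UMIs were summed per mouse, or per mouse and class, and tested with edgeR 4.0.16 (quasi-likelihood, TMM, low-count filter by edgeR's default, Benjamini-Hochberg adjustment over all genes tested, threshold 0.05) in R 4.3.3. Classes were compared with the mouse as a block; their defining genes were left out. Standard errors are the log2 fold change over the root of the F statistic. Alternatives were DESeq2 1.42.0, other filters, scalings and cell rules, and leaving out each mouse. Shares and pair odds ratios (Mantel-Haenszel over mice) used cells thinned to 400 UMIs with a fixed seed. The fit and the odds ratio code were first tested on simulated data. Coordinates come from the mm10 annotation and promoters from RefSeq's table. The text names all members, the genes that follow the number of members most and least closely (10 and 5), and from each list at most 4 called genes and the 2 with most UMIs. A gene that this rule names is not reported here. AW112010, S100a3, Itgb1 and Cd44 were named after their values were seen. Outside the comparisons of all kept cells and of Cxcr6 with Klf2 cells, member differences under 0.5 on the log2 scale are given without values. Each mouse is 1 library. edgeR estimates a gene's spread partly from all genes tested, so p-values and standard errors do not rest on that gene's own spread alone. Between TAT-CRE and PBS mice, a gene's own spread is the one between these 5 libraries. With the mouse as a block, it is the spread of the class difference over the mice.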

Additional observations from a re-analysis of the deposited data

How the results depend on the processing

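No paired analysis was possible because TAT-CRE and PBS mice share no replicate number; within mice, the mouse served as the block. Genes called between TAT-CRE and PBS mice stayed at 0 except with DESeq2 (1) and without the low-count filter (8, and 1 in Cd8 cells). For Cxcr6 against Klf2 cells 18 became 28 with DESeq2, 29 without the filter, 9 without cells holding a myeloid or endothelial UMI, 4 with classes from thinned cells, 3 without the mouse block and 4 to 19 with a mouse left out. Within Cd8 cells 2 became 15 with DESeq2, 14 without the filter, 5 without ribosomal RNA genes, 1 without cells holding a myeloid or endothelial UMI, 0 without the block and 0 to 6 with a mouse left out. For Cd8 against Cd4 cells 6 became 3 with DESeq2, 57 without the filter, 17 without ribosomal RNA genes, 18 without cells holding a myeloid or endothelial UMI, 2 without the block and 2 to 17 with a mouse left out. The difference between groups gained 1 call, S100a6, without cells holding a myeloid or endothelial UMI. The filter and left-out mice change the genes and samples tested; otherwise the cause was not tested.

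S100a4 and S100a6 kept their direction between Cxcr6 and Klf2 cells in all 14 alternatives and their call in 7 and 9. Member differences near 0 changed sign, none of them called. Between TAT-CRE and PBS mice, S100a4 was -0.0021 and Ahnak -0.0249 at 800 UMIs, Ahnak -0.0313 without the mitochondrial limit and Vim 0.0691 by library totals. With a mouse left out the ranges were -0.168 to 0.278 for S100a4, -0.0482 to 0.287 for S100a6, -0.150 to 0.0103 for S100a10, -0.302 to 0.0275 for Lgals1, -0.151 to 0.0265 for Vim and -0.339 to 0.209 for Ahnak. Between Cxcr6 and Klf2 cells, S100a11 was 0.0174 and Anxa2 0.0063 without the filter. Crip1 was -0.052 with DESeq2, -0.0919 by library totals, -0.0933 at 800 UMIs, -0.0593 without cells holding a myeloid or endothelial UMI, -0.0849 with thinned classes and -0.0458 without the block. With a mouse left out Anxa2 ran from -0.590 to 0.142 and Crip1 from -0.197 to 0.200. The median pair odds ratio of 1.21 ran from 1.14 to 1.51 over the alternatives. That range was smaller than the spread between mice, which crosses 1. Of 288 single pair values, 272 moved less than their own spread between mice. Single pairs could still cross 1 between thinning depths, as S100a6 with Vim and some pairs of Crip1 did. Of 70 shares 11 moved, 10 of them unthinned.

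Depth is 1 limit beside the 5 mice: a Klf2 class of 21 to 40 cells per mouse gives 5 to 85 S100a6 UMIs, and most cells hold no UMI of a given member.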
